A study of Caenorhabditis elegans with 2 samples.

Results

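Intergenic regions of the X chromosome made up 1219 of the 30000 candidate regions that the authors listed from pooled ChIP-seq replicates of the tagged nuclear hormone receptor NHR-237 in Caenorhabditis elegans. A candidate was counted as intergenic when its summit, the base of highest enrichment, lay inside no annotated gene and not within the promoter stretch around a gene start, taken as the 1000 bp before it and the first 100 bp after it. All gene classes except piRNA genes were considered, and the rule used position alone and no signal. Of the 6147 candidates on X, 19.8% met it. The regions are called intergenic X regions here, and each is named by the nearest gene on its left and on its right along the chromosome, for example F20B6.9/hpk-1.

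The material was whole L3 larvae of strain OP228, with both sexes pooled, which carry the allele unc-119(ed3) III and the transgene wgIs228. Chromatin immunoprecipitation was directed at eGFP-nhr-237, and the labels give nhr-237 as the antibody target. There were 2 biological replicates of this 1 group and no other genotype, stage or treatment. The labels give a fragment size of 150 to 350 bp. They do not say in which cells the transgene is expressed or how its level compares with that of the endogenous gene, and whole larvae mix all tissues, so a region bound in few cells cannot be told apart from one bound weakly in many. Because there is 1 group, and regions of the same libraries are not replicates of each other, no test was made, and differences between classes of regions are given as counts, shares and ranges.

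Nuclear hormone receptors are transcription factors with a zinc-finger DNA-binding domain and a ligand-binding domain, and the family is greatly expanded in nematodes. Intergenic sequence far from gene starts can hold enhancers, insulators and other sites that act at a distance. The X chromosome of C. elegans also carries dispersed recruitment sites for the dosage compensation complex, which lowers X expression in hermaphrodites, and those sites are known to hold a GC-rich motif that is more frequent on X than on autosomes. This is background only, since none of the files used here measures that complex.

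The regions that carry the result are the ones of highest signal, the authors' own enrichment value, of which the sources used here give no scale. The sequences of the 7 intergenic X regions of highest signal are shown first, then the highest region that lacked both short words described next, and then the highest region below the authors' set of reproducible peaks. Each is the 201 bp centred on the summit, taken from the RefSeq sequence of WBcel235 (ce11), forward strand, 5′ to 3′. Capitals mark the 6-base word GCAGGG or its reverse complement, and the related word GAAGGG, searched here as CCCTTC, or its reverse complement. The 2 words differ in 1 base and are called the C form and the A form.
W04G3.11/WBGene00014538 (chrX:11094134-11094334): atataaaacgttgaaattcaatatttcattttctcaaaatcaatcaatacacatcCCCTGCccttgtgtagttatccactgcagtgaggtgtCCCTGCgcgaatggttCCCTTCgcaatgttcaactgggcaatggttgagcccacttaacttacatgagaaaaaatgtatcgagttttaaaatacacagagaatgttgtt
ZK899.6/ZK899.10 (chrX:9465758-9465958): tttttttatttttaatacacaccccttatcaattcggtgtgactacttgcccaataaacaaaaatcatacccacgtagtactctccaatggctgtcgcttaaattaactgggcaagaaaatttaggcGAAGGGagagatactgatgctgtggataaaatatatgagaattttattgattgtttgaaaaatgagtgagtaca
K02D3.5/K02D3.1 (chrX:13700793-13700993): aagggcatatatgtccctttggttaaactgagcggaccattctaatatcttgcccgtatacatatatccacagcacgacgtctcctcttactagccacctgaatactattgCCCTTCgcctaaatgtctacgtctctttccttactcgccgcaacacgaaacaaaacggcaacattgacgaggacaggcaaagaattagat
F20B6.9/hpk-1 (chrX:4209176-4209376): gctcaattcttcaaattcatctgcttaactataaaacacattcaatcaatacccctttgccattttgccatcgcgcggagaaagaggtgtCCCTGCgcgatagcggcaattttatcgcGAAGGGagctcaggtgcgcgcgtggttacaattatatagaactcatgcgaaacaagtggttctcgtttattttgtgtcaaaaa
H11E01.2/fbxb-58 (chrX:1627033-1627233): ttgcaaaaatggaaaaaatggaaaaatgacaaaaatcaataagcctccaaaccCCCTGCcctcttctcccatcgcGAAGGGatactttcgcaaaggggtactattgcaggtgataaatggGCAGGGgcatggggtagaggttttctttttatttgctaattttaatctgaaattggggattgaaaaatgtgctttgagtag
F55G7.6/F55G7.5 (chrX:11937419-11937619): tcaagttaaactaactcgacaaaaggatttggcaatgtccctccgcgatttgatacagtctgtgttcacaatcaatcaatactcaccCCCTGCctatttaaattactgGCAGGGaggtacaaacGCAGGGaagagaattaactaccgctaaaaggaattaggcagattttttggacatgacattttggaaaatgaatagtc
gtr-1/F25E2.2 (chrX:806623-806823): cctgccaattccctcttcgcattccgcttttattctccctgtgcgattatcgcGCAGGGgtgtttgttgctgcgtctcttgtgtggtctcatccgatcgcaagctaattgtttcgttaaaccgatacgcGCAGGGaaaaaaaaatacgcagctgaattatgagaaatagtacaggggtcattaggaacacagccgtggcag
F56C3.1/cel-mir-2221 (chrX:1389455-1389655): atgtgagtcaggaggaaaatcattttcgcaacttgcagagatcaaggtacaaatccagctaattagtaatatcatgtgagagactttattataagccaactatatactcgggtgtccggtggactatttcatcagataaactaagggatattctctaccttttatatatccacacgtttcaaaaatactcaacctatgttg
F22H10.2/WBGene00017729 (chrX:16682016-16682216): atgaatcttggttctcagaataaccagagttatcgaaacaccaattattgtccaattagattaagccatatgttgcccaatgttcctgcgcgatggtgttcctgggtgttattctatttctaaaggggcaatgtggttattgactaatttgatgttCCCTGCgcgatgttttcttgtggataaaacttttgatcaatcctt

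The first region, W04G3.11/WBGene00014538, had 3 marked words within the window, the C form at offsets of -42.5 and -5.5 bp and the A form at 10.5 bp. F20B6.9/hpk-1 had the C form at -7.5 bp and the A form at 20.5 bp. In ZK899.6/ZK899.10 and K02D3.5/K02D3.1 the A form alone was present, at 29.5 and 13.5 bp. F55G7.6/F55G7.5 had the C form 3 times and gtr-1/F25E2.2 2 times within the window, and neither had the A form. The offsets count from the summit to the centre of the word, with negative values to the left.

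The authors also deposited 48 peaks that passed their cut-off on the irreproducible discovery rate (IDR), a procedure that keeps ranked peaks according to how well ranks agree between lists. These were the 48 pooled regions of highest signal, so membership in that list and rank in the pool are the same information. Of the 1219 intergenic X regions, 14 (1.15%, 95% Clopper-Pearson interval 0.629 to 1.92%, counting error over summits only) were IDR peaks, where 0.16% of all candidates were. Among the 28781 other candidates the share was 0.118%, with 34 IDR peaks. Intergenic candidates on autosomes held 2 IDR peaks in 3554 regions (0.0563%), and X candidates at protein-coding promoters held 3 in 1077 (0.279%). The intergenic X regions thus held 14 of the 26 IDR peaks on X. The number depends on the library. With the rule applied to each replicate's own summits, the 48 highest regions of replicate 1 held 15 intergenic X regions and those of replicate 2 held 9. Matched within 100 bp instead, 15 of the pooled intergenic X regions were among the 48 highest of replicate 1 and 10 among those of replicate 2, since the replicate 2 summit beside fbxb-58 does not itself meet the rule.

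The 4 highest regions of the whole pooled list were intergenic X regions. W04G3.11/WBGene00014538, at chrX:11094059-11094408, had a signal of 204 in the pool, 119.2 in replicate 1 and 85.9 in replicate 2, and ranked first in all 3 lists. ZK899.6/ZK899.10, at chrX:9465683-9466032, had 161 in the pool, with 86.2 in replicate 1 and 75.4 in replicate 2. Both stood above every other candidate in replicate 1. The lists were made separately and no common scale is stated, so signals of different lists are set side by side as values, and only ranks are compared between replicates. The first lies 1439 bp upstream of a tRNA gene, WBGene00014538, and 3365 bp past the protein-coding gene W04G3.11, with W02H3.3 the nearest protein-coding gene on the right. The second lies 1117 bp past ZK899.6 and 6612 bp before gap-2, which encodes a Ras GTPase-activating protein, with the non-coding RNA gene ZK899.10 in between.

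K02D3.5/K02D3.1, at chrX:13700718-13701067, had 137 in the pool, with 65.5 in replicate 1 and 71.1 in replicate 2, and F20B6.9/hpk-1, at chrX:4209101-4209450, had 135, 58.5 and 76.0 in the same order. These ranked 3 and 4. The nearest protein-coding gene left of the first is adm-2, an ADAM-family metalloprotease gene, 5092 bp away, with the non-coding RNA gene K02D3.5 closer to the summit. The second lies 1295 bp from the end of hpk-1, which encodes a homeodomain-interacting protein kinase, and 1791 bp upstream of the start of F20B6.9. Their ranks were 5 and 9 in replicate 1 and 6 and 2 in replicate 2.

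H11E01.2/fbxb-58, at chrX:1626958-1627307, had 114.5 in the pool, with 58.5 in replicate 1 and 55.0 in replicate 2. F55G7.6/F55G7.5, at chrX:11937344-11937693, had 111 in the pool, 53.9 in replicate 1 and 59.99 in replicate 2. gtr-1/F25E2.2, at chrX:806548-806897, had 93.5 in the pool, 62.6 in replicate 1 and 32.7 in replicate 2. All 3 were among the 48 highest regions of each replicate. The summit at fbxb-58, a gene of the F-box family of ubiquitin ligase adaptors, lies 1004 bp upstream of that gene's start and so only just meets the rule. F55G7.6/F55G7.5 lies between a non-coding RNA gene and a protein-coding gene, with dot-1.4, a gene of the DOT1 histone methyltransferase family, 5860 bp to the left. gtr-1/F25E2.2 lies between the ends of a pair of protein-coding genes that converge on it, 268 bp from F25E2.2.

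B0294.1/ZC53.1, at chrX:1909404-1909753, had 63.8 in the pool, with 36.4 in replicate 1 and 25.8 in replicate 2. F56C3.1/cel-mir-2221, at chrX:1389380-1389729, had 63.3 in the pool, 29.0 in replicate 1 and 31.8 in replicate 2, and lies 1292 bp upstream of the microRNA gene mir-2221. With these, 9 intergenic X regions were among the 48 highest of both replicates, and all 9 were IDR peaks. The same number, 9 regions or 0.738%, were among the 500 highest of both replicates, where 0.167% of all candidates were. Among autosomal intergenic candidates the share was 0.0844% (3 regions).

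The other 5 IDR peaks among the intergenic X regions ranked high in replicate 1 and either ranked lower or had no match in replicate 2. lgc-40/T24D8.6, at chrX:2364759-2365108, had 46.5 in replicate 1 and 17.0 in replicate 2, where it ranked 910. F19H6.6/F19H6.5, at chrX:12363030-12363379, had 35.3 in replicate 1 and 11.4 in replicate 2, where it ranked 8589. F31A3.7/hlh-29, at chrX:17544428-17544777, had 32.4 in replicate 1 and 10.1 in replicate 2, where it ranked 13299. In replicate 1 all 3 ranked among the 48 highest, and the lowest signal in the list of replicate 2 was 7.41. WBGene00020492/T13G4.7, at chrX:1199912-1200261, had 29.3 in replicate 1 and 17.0 in replicate 2, where it ranked 886. F43E12.1/cel-mir-4811, at chrX:7181639-7181988, had 39.2 in replicate 1 and no summit within 100 bp in replicate 2. Their pooled signals were 64.4, 58.9, 48.01, 47.2 and 45.7, in the order named. All 5 thus entered the IDR list without a matched summit among the 500 highest of replicate 2. For F43E12.1/cel-mir-4811 no rank in replicate 2 is known.

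Of these 5, lgc-40/T24D8.6 lies 113 bp from the end of lgc-40, a gene for a ligand-gated ion channel, and 732 bp from the end of T24D8.6. F19H6.6/F19H6.5 has the shortest gene-free gap of the 14, 555 bp, also between converging genes. F31A3.7/hlh-29 lies 2889 bp from the end of hlh-29, a basic helix-loop-helix transcription factor gene, in a gap of 12610 bp. It is the only one of the 14 in which over 50% of the 25-base words of the window occur more than once in the genome (55.9%). At the other 13 regions this share was at most 3.39%. Read mapping in repeated sequence can add or remove signal, and its part in that region's value was not tested.

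Over the 14, the median signal was 78.96 in the pool and 50.2 in replicate 1. Over the 13 with a match in replicate 2 it was 32.7 in that replicate. Their signals in the pool and in each replicate are plotted by region, with the first region below the IDR list added.

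**Figure D1:**
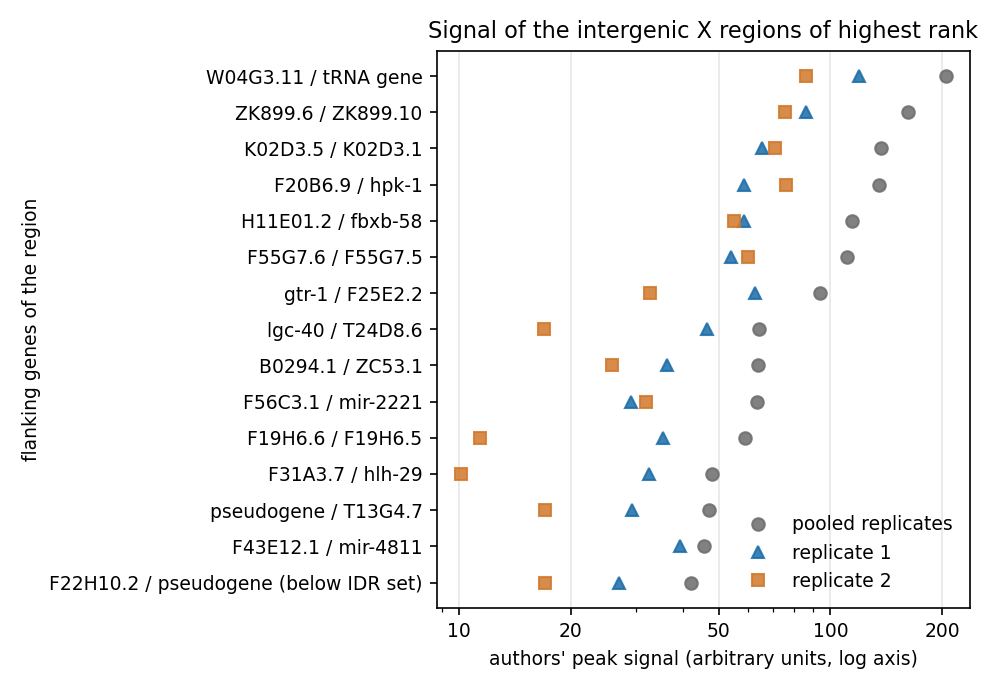
Signal of the 14 intergenic X IDR peaks and of the first intergenic X region below them, in the authors' units on a log axis, with 1 row a region and separate marks for the pool, replicate 1 and replicate 2. The upper 7 regions have replicate values from 32.7 to 119.2, while 5 of the lower 8 have a replicate 2 value under 18 and F43E12.1/mir-4811 has none.

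Below the highest regions, intergenic X regions were much like other candidates in signal. Over all 1219 the median was 17.8, with a range from 13.8 to 204 and quartiles of 15.5 and 20.8. The median was 17.4 for autosomal intergenic candidates, 17.995 for X promoter candidates and 17.5 for all other candidates. Without the 14 IDR peaks the median of the intergenic X regions was 17.7 and the maximum 42.1. The difference between classes lay in the upper tail.

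A signal of at least 100 was reached by 6 intergenic X regions (0.492%), against 7 of all other candidates (0.0243%). At least 50 was reached by 11 (0.902%), against 24 (0.0834%). At least 30 was reached by 45 (3.69%), against 574 (1.99%). The ratio of the share in intergenic X regions to that in other candidates was thus largest at the highest limit and smallest at the lowest. Further down the shares were nearer still as a ratio, with 17.97% of intergenic X regions among the 5000 highest regions, against 16.6% of other candidates. X promoter candidates stood at 2.79% for a signal of at least 30 and at 19.7% for the 5000 highest, and autosomal intergenic candidates at 1.55% and 15.9%. The share of each class above every signal is plotted on log axes.

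**Figure D2:**
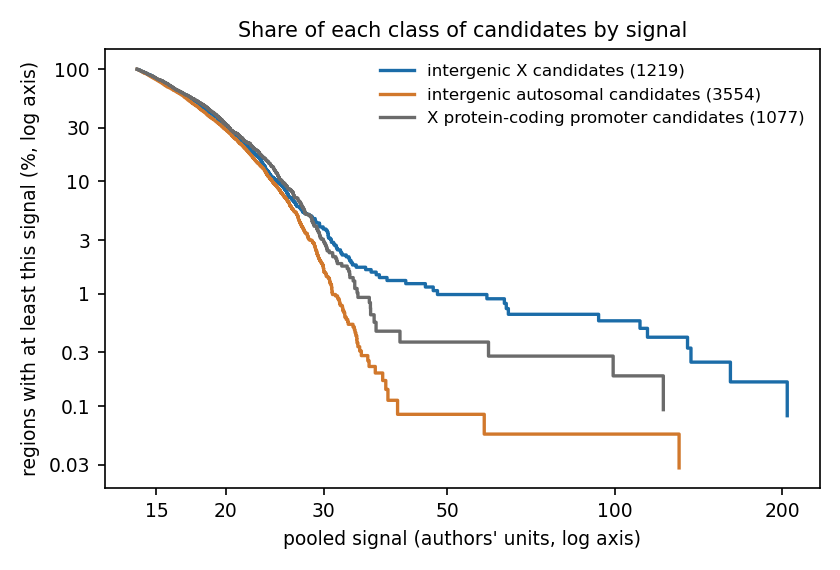
Share of each class of candidates (percent, log axis) with at least a given pooled signal (authors' units, log axis), for intergenic X candidates, intergenic autosomal candidates and X protein-coding promoter candidates. The 3 lines lie close together below a signal of 20, and beyond 30 the intergenic X line stays highest, ending at 204 against 131 for autosomal intergenic candidates and 122 for X promoter candidates.

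Within X the pattern was the same. Intergenic regions were 14 of the 26 X candidates ranked 1 to 48 in the pool (53.8%) and 23 of the 118 ranked 49 to 500 (19.5%). They were 182 of 975 at ranks 501 to 5000 (18.7%), 423 of 2078 at ranks 5001 to 15000 (20.4%) and 577 of 2950 below that (19.6%). The share of X bases that meet the intergenic rule is 23.3%. Intergenic sequence thus held fewer X candidates than its share of bases at all ranks except among the 48 highest. Per 100 kb of eligible sequence there were 29.6 intergenic X regions, against 34.7 candidates per 100 kb over the whole of X and 25.2 intergenic candidates per 100 kb of eligible autosomal sequence.

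Replicate support fell steeply with rank. A summit within 100 bp was present in replicate 1 for 661 intergenic X regions (54.2%), where 53.4% of all candidates had one, and in replicate 2 for 641 (52.6%), where 51.1% did. Both replicates had one for 254 (20.8%, interval 18.6 to 23.2%), where 20.5% of all candidates did. Neither had one for 171 of the 1219, where 4795 of all 30000 candidates had none. As a class, intergenic X regions were supported about as often as other candidates.

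By rank in the pool, both replicates matched 13 of the 14 IDR peaks (92.9%), against 34 of the 34 other IDR peaks. At ranks 49 to 500 it was 19 of 23 (82.6%), against 341 of 429 other candidates (79.5%). At ranks 501 to 5000 it was 95 of 182 (52.2%), against 55.7%. Neither class was the higher one at every rank. At ranks 5001 to 15000 the share was 22.2%, against 25.2% of other candidates, and in the lowest tier, which holds 577 of the intergenic X regions, it was 5.72%, against 4.81%. Each replicate's list stops at 30000 regions, so a missing match does not show absence of signal.

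**Figure D3:**
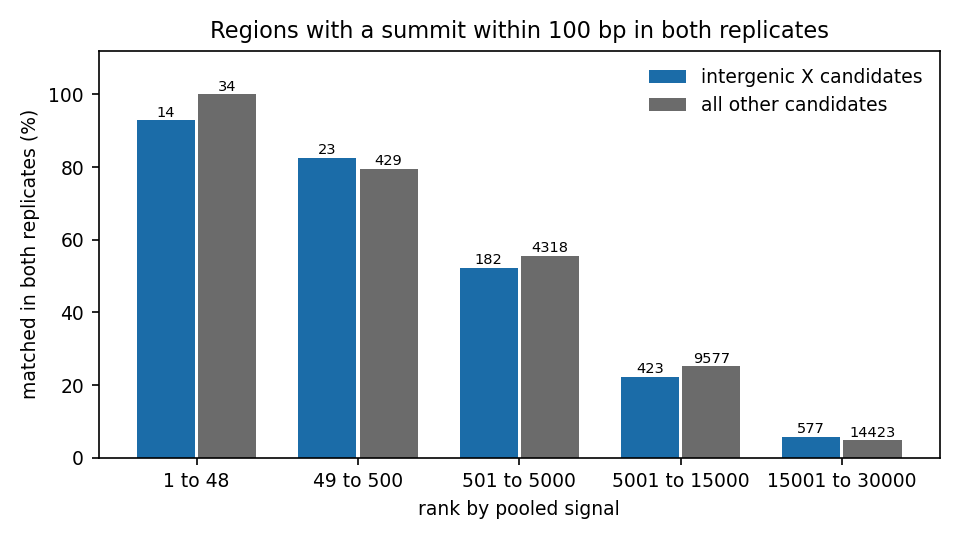
Share of regions with a summit within 100 bp in both replicates (percent) by rank in the pooled list, for intergenic X candidates and for all other candidates, with the number of regions above each bar. Support is above 80% for intergenic X candidates ranked 1 to 500 and 5.72% in the lowest tier, and the paired bars are similar throughout.

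Where both replicates matched, their signals were weakly related. Over the 254 regions Spearman's rho between replicate 1 and replicate 2 was 0.247, and over the 241 that are not IDR peaks it was 0.140. Both replicates have the same possible control in the labels, the points share the sequence of their regions, and regions are not independent samples, so these values are descriptive. The pooled signal was near the sum of the replicate signals, with a median ratio of 1.02 and a range from 0.739 to 1.36. No pooled candidate had a signal below 13.8, and a floor on a sum can lower the relation of its parts. How far this lowered the rho values was not tested. At high ranks, 9 intergenic X regions were among the 500 highest of both replicates, 20 among those of replicate 1 only and 20 among those of replicate 2 only. Of the other candidates, 41 were among the 500 highest of both, 392 of replicate 1 only and 384 of replicate 2 only, so a larger part of these regions was shared among intergenic X regions than among the others.

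**Figure D4:**
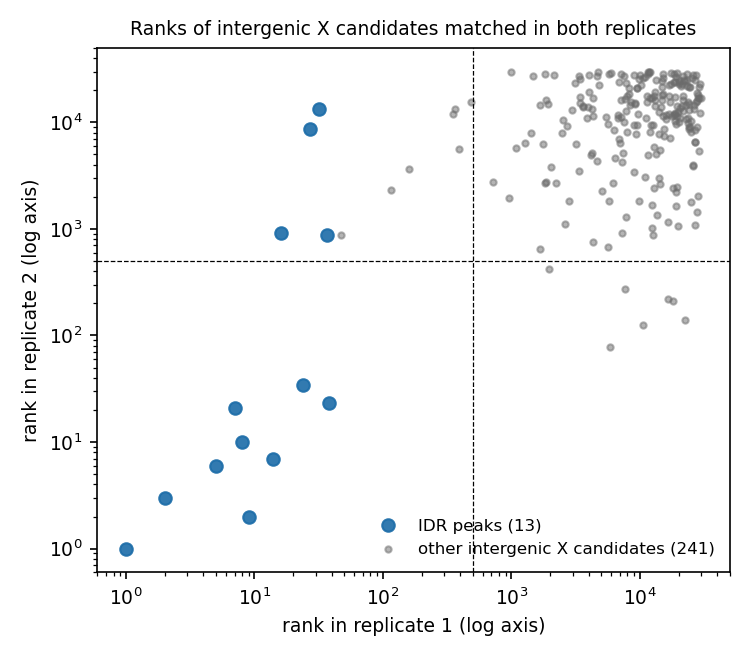
Rank in replicate 1 against rank in replicate 2 (log axes) for the 254 intergenic X candidates matched in both, with the 13 matched IDR peaks as large points and rank 500 as dashed lines. The 9 points below both lines are all IDR peaks, and 4 IDR peaks lie high on the replicate 2 axis, at ranks 886 to 13299.

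The step below the IDR list was taken by 23 intergenic X regions ranked 49 to 500, with a median signal of 32.9 and a lowest signal of 30.8. The highest of them, F22H10.2/WBGene00017729 at chrX:16681941-16682290, had 42.1 in the pool, with 26.9 in replicate 1 and 17.0 in replicate 2, just under the lowest IDR signal of 42.7. Of the 23, 7 were among the 500 highest regions of replicate 1 and 4 among those of replicate 2. These counts are not set against other candidates of the same ranks. A summit within 100 bp in both replicates was about as frequent as in those candidates, at 82.6% against 79.5%. npr-4/R01H5.1, beside a neuropeptide receptor gene, had 22.6 in replicate 1 and 14.8 in replicate 2. linc-54/fbxa-141, between a long intergenic non-coding RNA gene and an F-box gene, had 12.7 in replicate 1 and 22.9 in replicate 2. The replicates ranked this pair of regions in opposite order.

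Several other regions of this step differed in rank between the replicates or were matched in 1 only. T01B10.13/T01B10.14, 1618 bp from the nuclear hormone receptor gene nhr-14, had 21.4 in replicate 1 and no match in replicate 2. col-167/col-168, between a pair of cuticle collagen genes, had 23.3 in replicate 1 and no match in replicate 2. flp-20/pkc-2, between genes for an FMRFamide-like neuropeptide and a protein kinase C, had 10.5 in replicate 1 and 17.0 in replicate 2, at ranks 12742 and 870. Each had a pooled signal from 33.3 to 37.3 all the same. K02A4.6/K02A4.15 had 21.8 and 13.7 in replicates 1 and 2, T27A10.2/T27A10.6 had 17.9 and 14.4, and T19D7.5/T19D7.6 had 19.7 and 10.1. Y59E1B.5/WBGene00023383 had 12.0 and 19.7, and dot-1.3/phf-32, beside another gene of the DOT1 family, had 15.7 and 9.51. At the other end, gst-11/tmem-24, beside a glutathione S-transferase gene, had the lowest pooled signal, 13.8, and no match in either replicate.

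ZK899.6/ZK899.10 also showed how lists can split a region. In replicate 2 a second summit in the same gap, at chrX:9465858-9466221, had a signal of 31.2 and rank 24 in that list. The pooled region that it matches ranked 21527.

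The intergenic X regions were spread along the whole chromosome. The left of 3 equal parts of X held 387 (31.7%), the middle 402 (33.0%) and the right 430 (35.3%), or 28.8, 31.8 and 28.4 per 100 kb of eligible sequence. Windows of 1 Mb held from 45 to 95 regions, or 21.3 to 37.8 per 100 kb of eligible sequence. Density thus varied less than 2-fold between windows. The 14 IDR peaks lay in 10 of the 18 windows, with 7 in the left part, 3 in the middle and 4 in the right. The second window from the left held 4 of them, H11E01.2/fbxb-58, B0294.1/ZC53.1, F56C3.1/cel-mir-2221 and WBGene00020492/T13G4.7. No pair of these 14 IDR peaks was closer than 189468 bp, and their median spacing was 843285 bp. Between neighbouring intergenic X regions as a whole it was 6413 bp, a contrast that follows mainly from the larger number of regions.

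The 1219 regions lay in 758 gene-free gaps, 482 of which held 1 region and 276 more than 1. The most were in the 27227 bp between npr-24 and the nuclear hormone receptor gene nhr-1, with 13 regions of signal 14.5 to 23.0, of which 4 were matched in both replicates. The 11610 bp between K08B5.8 and K08B5.6 held 8 regions, none matched in both. A gap rich in candidates was thus not a gap of high signal in these cases. The 13599 bp between B0294.1 and ZC53.1 held 7 regions with a median signal of 25.5, 1 of them the IDR peak. Each of the 14 IDR peaks was in a gap of its own, of median length 3030.5 bp (range 555 to 13599), against 4700 bp for all intergenic X regions.

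The distance from summit to the nearest gene start had a median of 1817 bp (146 to 13559) over all intergenic X regions and 1745 bp (1004 to 4036) over the 14 IDR peaks. Under the rule a summit can lie closer than 1000 bp to a start only past the far end of a short gene.

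By the strands of the flanking genes, 688 intergenic X regions (56.4%) lay between genes on the same strand, 245 (20.1%) between converging genes and 286 (23.5%) between diverging genes. Positions spaced evenly over the eligible sequence of X gave 56.3%, 21.9% and 21.8%, so the class as a whole was close to the layout of the sequence it was drawn from. None of the 14 IDR peaks lay between diverging genes, with 5 between converging genes and 9 between genes on the same strand. With protein-coding genes alone as flanks, 7 of the 14 lay between converging genes, 7 between genes on the same strand and none between diverging genes. Over all intergenic X regions the counts with these flanks were 126 (10.3%), 675 and 418 (34.3%). At ranks 49 to 500 the layout of the IDR peaks was not seen, with 3 of 23 regions between converging, 10 between same-strand and 10 between diverging protein-coding genes.

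Of the 2438 flanks of intergenic X regions, 1567 (64.3%) were protein-coding genes, 707 genes for other non-coding RNA, 75 pseudogenes, 36 microRNA genes, 24 lincRNA genes, 20 tRNA genes, 6 snoRNA genes and 3 antisense RNA genes. The 28 flanks of the 14 IDR peaks were 20 protein-coding genes, 4 genes for non-coding RNA, 2 microRNA genes, 1 pseudogene and 1 tRNA gene. These numbers describe position only, since a flanking gene need not be regulated by the region.

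As the nearest protein-coding gene on either side, 1142 of the 2731 protein-coding genes of X (41.8%) flanked an intergenic X region. The share varied between gene families. These were listed by gene symbol alone, for example ceh- for homeobox and col- for collagen genes. Genes of a family under other symbols were not counted, so the shares are not totals of whole families. Listed potassium channel genes flanked an intergenic X region in 9 of 13 cases (69.2%), and genes for neuropeptides and insulin-like peptides in 19 of 34 (55.9%). Ligand-gated channel and receptor genes did so in 8 of 28 cases (28.6%). The counts are not corrected for the length of intergenic sequence beside each gene.

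flp-20 and flp-5, both FMRFamide-like peptide genes, flanked regions of signal 33.3 and 26.7, and nlp-3, another neuropeptide gene, a region of 23.8. twk-16, a two-pore-domain potassium channel gene, had 5 regions beside it, the highest at 24.3, and lgc-53 had 7, the highest at 26.7. The region beside lgc-40 is an IDR peak, at 64.4. The upper quartile over all candidates was 20.7. These examples were taken from the highest regions of each list, so their place above it follows from the choice. Next in the same lists, flp-8 at 23.3 and twk-21 and twk-22 at 21.0 also lay above it. The highest regions of twk-17 at 20.5, lgc-23 at 19.4 and lgc-41 at 19.3 lay below it.

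Nuclear hormone receptor genes flanked an intergenic X region in 14 of 23 cases (60.9%). The highest were nhr-14 at 37.3, nhr-48 at 30.5 and the region between nhr-173 and nhr-137 at 25.2. Homeobox genes did so in 7 of 18 (38.9%), led by ceh-36 at 27.2 and ceh-37 at 24.04. No gene of either list flanked an IDR peak. The signals given are those of the pool, and not every region named was matched in both replicates. The nhr-14 region had no match in replicate 2, and the nhr-48 and ceh-36 regions had none in replicate 1.

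Collagen genes flanked an intergenic X region in 10 of 27 cases (37.0%), and 4 of the 10 did so at a region among the 500 highest. Those were col-167 and col-168 at 33.4 and col-170 and col-171 at 32.9, each pair sharing 1 region, so 4 genes stand for 2 regions. The col-167/col-168 region had no match in replicate 2, and the other was matched in both replicates. Of the 1142 X protein-coding genes that flanked an intergenic X region, 72 flanked one among the 500 highest. With 2 collagen regions, the difference is not read as a trait of collagen genes. Detoxification genes flanked an intergenic X region in 5 of 14 cases (35.7%), led by cyp-13B1, a cytochrome P450 gene, at 29.9. The region beside cyp-13B1 had no match in replicate 1. F-box genes flanked an intergenic X region in 4 of 18 cases (22.2%), of which fbxb-58 and fbxa-141 flanked regions of 114.5 and 37.7.

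Of 6 X genes for sex determination and dosage compensation, 3 flanked an intergenic X region. xol-1, the switch gene that sets male fate, had its highest region at 22.6 (rank 4871), 8907 bp away. sex-1, a nuclear receptor gene that acts as an X signal element in the worm's count of X chromosomes, had 20.4 (rank 8071), and fox-1, an RNA-binding protein gene of the same kind, had 17.2 (rank 16018). None of the 3 flanked an intergenic X region of high signal, and candidates of other classes near them were not examined.

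The bound at 1000 bp was passed narrowly by some regions. Summits 1001 to 1100 bp upstream of a start numbered 66, with a median signal of 18.8, a maximum of 114.5 and 1 IDR peak, the one at fbxb-58. Summits 901 to 1000 bp upstream, just outside the class, numbered 80, with a median of 17.8, a maximum of 33.4 and no IDR peak. With the bound at 2000 bp, 721 intergenic X regions and 8 IDR peaks remained in the class.

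The words marked in the sequences were far more frequent at the highest intergenic X regions than in the class. The C form was present within 100 bp of the summit in 8 of the 14 IDR peaks (57.1%), in 3 of the 23 regions ranked 49 to 500 (13.0%) and in 27 of the 1182 below that (2.28%). It was present in 3.12% of all intergenic X regions, against 2.29% of all other candidates, 1.89% of autosomal intergenic candidates and 3.44% of X promoter candidates. The A form was present in 7 of the 14 (50%), in 1 of the 23 and in 38 of the 1182 (3.21%). Over the class it was at 3.77%, against 4.89% of all other candidates. The frequency of both words at the IDR peaks was thus a property of the highest regions, and the class as a whole did not stand apart.

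Either word was present in 12 of the 14 IDR peaks, and 3 had both. All 7 of the higher ones by signal had one, and 5 of the lower 7. The exceptions were F56C3.1/cel-mir-2221 and F19H6.6/F19H6.5. The first of these, whose sequence is printed without capitals, had 29.0 in replicate 1 and 31.8 in replicate 2 and so was high in both. Over all intergenic X regions 80 (6.56%) held either word, against 2027 of all other candidates (7.04%), so that most regions with a word had ordinary signal. The words were chosen from earlier results of these data, so the shares at the IDR peaks are a description. Of the intergenic X regions among the 48 highest of a single replicate, 5 of 9 held the C form in replicate 2 alone and 9 of 15 in replicate 1 alone, with the rule applied to each replicate's own summits.

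The sites lay near the summits. Counted by their centres within 100 bp, the C form had 15 sites in 8 of the IDR peaks, at a median of 31.5 bp from the summit and with 14 within 50 bp. The A form had 7 sites in 7, at a median of 22.5 bp and with 6 within 50 bp. The exception for the A form was F31A3.7/hlh-29, at -80.5 bp, in the window of mostly repeated sequence.

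**Figure D5:**
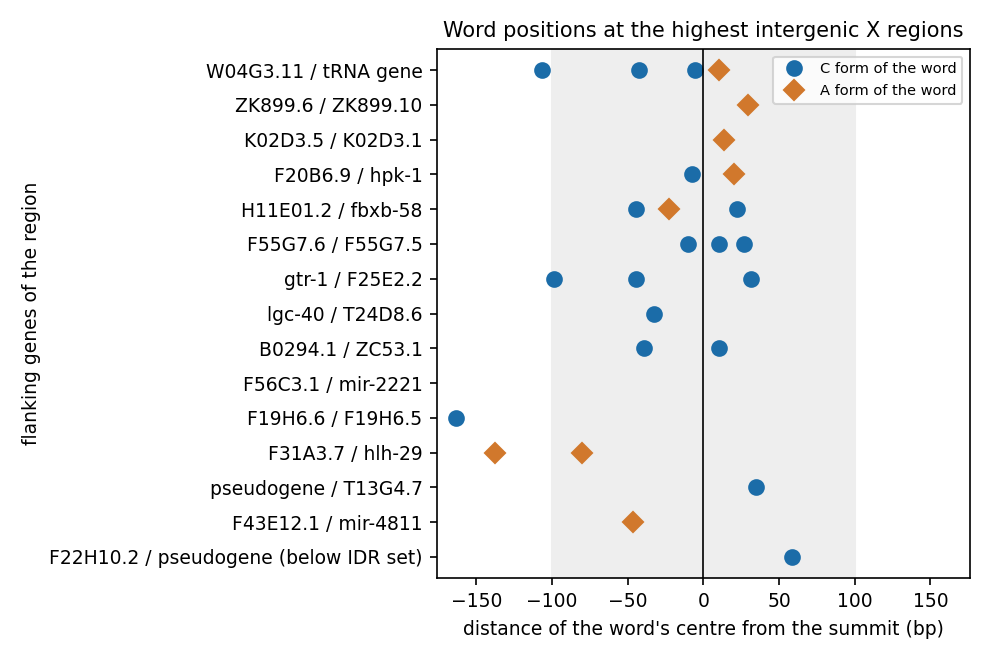
Distance of the centre of each word from the summit (bp) in the 14 intergenic X IDR peaks and the first region below them, with the C form as circles, the A form as diamonds and the 100 bp on each side of the summit shaded. Most marks lie within 50 bp of the summit, and the row of F56C3.1/mir-2221 is empty.

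The same words occurred at IDR peaks elsewhere on X but seldom on autosomes. Of the 12 X IDR peaks outside the class, 7 held the C form and 7 the A form (58.3% each). Of the 22 autosomal IDR peaks, 1 held each (4.55%). In this respect the intergenic IDR peaks were like other X IDR peaks. Since the words were chosen from earlier results of these data, this contrast is a description too and no independent support.

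Words of 8 bases were kept when at least 4 of the 14 IDR peaks and at most 1% of the other intergenic X regions held them, so the contrast between the IDR peaks and the other regions was fixed by the choice and is not a result. CCCTTCGC was present in 7 of the 14 and in 2 of the 1205 other intergenic X regions (0.166%), and CGCAGGGA in 5 and in 4 (0.332%). CCTGCGCG was present in 4 of the 14 and in 1 of the 1205. These words overlap one another and the shorter ones. The 7 with CCCTTCGC were the first 5 by signal together with F31A3.7/hlh-29 and F43E12.1/cel-mir-4811.

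A 9-base extension of the A form, GCGAAGGGA, occurred at 47 positions on X (2.65 per Mb) and at 147 on autosomes (1.78 per Mb), counting both strands. Of the 47, 13 lay in sequence that meets the intergenic rule. Of those 13, 6 lay within 100 bp of the summit of an intergenic X region, and 5 of the 6 were IDR peaks. The remaining 7 eligible copies were near no such summit, so the word was not always accompanied by an intergenic X region. Candidates of other classes near these copies were not counted. The 9-base word contains CCCTTCGC, read on the other strand. CCCTTCGC was kept because IDR peaks held it and few other intergenic X regions did. That 5 of the 6 were IDR peaks thus follows largely from the choice of word and is not a result. The densities on X and on autosomes are a description, since CCCTTCGC was kept from X regions. A word is a match of letters only.

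A related 7-base word, GCGCAGG, which overlaps the C form without always holding it, was present in 10 intergenic X regions (0.820%), against 0.434% of all other candidates, and 5 of the 10 were IDR peaks. The other 5 had signals from 17.97 to 42.1 with a median of 21.7. F22H10.2/WBGene00017729 was the highest of these, with the C form 58.5 bp to the right of its summit.

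Of the other words, none was present in more than 3 of the 14 IDR peaks. AGGTCA, the core site of many nuclear hormone receptors, was present in 1 of the 14 IDR peaks and in 6.23% of all intergenic X regions, against 4.96% of all other candidates. AGTTCA, a variant of it, was present in 1 of the 14 and in 15.6%, against 14.3%. GAGAGA was present in 3 of the 14 (21.4%), in 3 of the 23 regions ranked 49 to 500 (13.0%) and in 8.38% of those below, and in 8.61% of the class, against 11.6% of all other candidates. ACACAC was present in 2 of the 14 (14.3%), in 5 of the 23 (21.7%) and in 8.12% of those below, and in 8.45% of the class, against 7.32%. Both were thus more frequent at the higher ranks too, and each was present in 8 of the 22 autosomal IDR peaks (36.4%). AGCGCG was present in none of the 14 and in 2.46%, against 2.04%, and 8 of the 22 autosomal IDR peaks held it.

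Base composition also differed between the highest regions and the class. GC content over the 201 bp was 39.3 ± 5.81% (SD over regions, n = 14) at the IDR peaks, with a range from 29.9 to 49.3%, against 34.1 ± 5.98% (n = 1205) at the other intergenic X regions. Over the class it was 34.2 ± 6.005%, against 34.5 ± 6.14% for autosomal intergenic candidates and 36.7 ± 6.44% for all other candidates. At the other IDR peaks it was 41.1 ± 6.82% (n = 12) on X and 44.1 ± 7.63% (n = 22) on autosomes. Higher GC content was thus not particular to the intergenic X peaks. At intergenic X regions ranked 49 to 500 it was 37.4 ± 5.20% (n = 23). The ranges of the 14 IDR peaks and the other intergenic X regions overlapped widely. GC-rich words are expected more often in GC-rich windows, and how much of the word counts goes with GC content was not tested. Windows in which over 50% of the 25-base words were repeated in the genome numbered 6 among the 1219 (0.492%), against 126 of all other candidates (0.438%). Both autosomal intergenic IDR peaks were of this kind, against 1 of the 14 on X.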

How the data were processed

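ChIP-seq of eGFP-nhr-237 in L3 larvae was represented by peak lists of 2 biological replicates, of their pool and of the IDR peaks, in ce11. Per the submitters' file lists, the authors called regions in each replicate against a control and on the pooled replicates, and IDR thresholding gave the last list. The sources used here give no aligner, peak caller, IDR threshold or read depth, and intervals from reads were therefore not made. Signal means the authors' deposited enrichment value per region, of unstated scale, used to rank and describe regions; lists were made separately, and signals of different lists are set side by side without a common scale. The deposited q column was treated as a score, since it falls below 0 for 10776 of the 30000 pooled regions (450 of the intergenic X regions), and was not used. Lists in ce10 were not used here.

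Each list holds 30000 regions, of 350 bp in the pool and replicate 1 and 364 bp in replicate 2. Positions are 1-based. Gene annotation was Ensembl release 115 on WBcel235 (ce11), and sequence came from RefSeq for the same assembly. Summits within 100 bp were matched. Words were searched on both strands. Flanks were the nearest gene on each side, and repeated sequence was measured with 25-base words counted over the genome. The scripts were tested on simulated regions with known answers. Regions named are every IDR peak, the other members of the 25 of highest pooled signal, those among the 48 highest of both replicates, the lowest, and the gap with most regions. Genes named flank them or are up to 4 per gene list. The gaps after the first and the second ZK899.6/ZK899.10 summit were named after their values were seen. The regions, gene lists and words were chosen with earlier results of these data known. Python 3.11.15, numpy 2.4.6, pandas 2.3.3, scipy 1.17.1 and matplotlib 3.10.9 were used.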

Additional observations from a re-analysis of the deposited data

How the results depend on the processing

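Of 66 values under other settings, 50 were classed as the same as the reported value and 16 as moved. Counts were classed as the same within a ratio of 1.5. This wide limit took in 1690 and 1739 regions against 1219, although the matching percents were classed as moved. Bounds of 500 and 2000 bp upstream and protein-coding genes alone gave 1690, 721 and 1739 intergenic X regions, or 27.5%, 11.7% and 28.3% of X candidates, with 18, 8 and 18 IDR peaks. The share between converging genes was 16.9% with 500 bp, 25.8% with 2000 bp and 10.3% with protein-coding flanks. Support in both replicates was 15.1% with matches within 50 bp, 30.2% within 200 bp and 27.6% by reciprocal overlap of the regions. The C form was at 1.64% within 50 bp of the summit. Leaving out replicate 1 or replicate 2 gave 1197 to 1217 regions (19.6 to 19.7% of X candidates), 9 to 15 of them among the 48 highest, 2.47 to 2.67% among the 500 highest, 2.63 to 3.01% with the C form, 20.8 to 22.4% between converging genes and 29.1 to 32.7% in the left of 3 equal parts of X. The C form among the 48 highest regions was at 4 with 2000 bp and at 5 without replicate 1, against 8. Some settings, among them leaving out members of mostly repeated sequence (1213 regions, 13 IDR peaks), were chosen after seeing the data. The cause of the moves was not tested beyond what each setting changes by construction. No paired analysis was possible because there is 1 group and no test. Read depth is unknown, so what depth limits cannot be stated.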
